A study of Homo sapiens with 12 samples.

Results

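NRF2 and the genes of glutathione and redox defence around it were examined in renal carcinoma cells in which miR-29 activity was raised or blocked. The set held 9 genes, matched by symbol among 58051 counted genes and selected on the differences between treated and control libraries of these lines and on their control levels, namely NFE2L2, KEAP1, GCLC, GCLM, SLC7A11, NQO1, HMOX1, TXNRD1 and SRXN1. RNA-seq libraries came from 786-O and A-498 cells that had received either a miR-29 mimic or a control mimic (1 library per group in 786-O and 2 in A-498), and from ACHN cells given a miR-29 inhibitor or a control inhibitor (3 per group), each at 10 nM and harvested 48 h after transfection. All 3 are established human lines that the labels call clear cell renal cell carcinoma, and each treated group had its own control group of the same line. The effect of transient transfection is seen here at a single time and dose in bulk RNA, where fewer cells and less RNA per cell cannot be told apart.

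NRF2, encoded by NFE2L2, is a transcription factor that is held low by KEAP1, an adaptor that hands it to a ubiquitin ligase for destruction, until oxidants or electrophiles disable KEAP1. NRF2 then pairs with a small MAF protein on antioxidant response elements and raises genes that make glutathione, recycle thioredoxin and detoxify quinones and heme. In kidney and tumour cells the pathway is known for protection against oxidative stress. A mimic adds miR-29 activity to the cell and an inhibitor blocks it. A miRNA mostly lowers mRNAs that carry a match to its seed, nucleotides 2 to 8, in their 3′ UTR.

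The 3 human miR-29 mature sequences (RefSeq, GRCh38.p14) are shown because the seed, in capitals, is shared by all of them, so that the matches searched for do not depend on which one a mimic or inhibitor represents.
hsa-miR-29a-3p: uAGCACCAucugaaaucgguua
hsa-miR-29b-3p: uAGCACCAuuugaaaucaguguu
hsa-miR-29c-3p: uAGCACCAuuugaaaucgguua

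None of the 9 genes carried the seed match, TGGTGCT, in any 3′ UTR annotated for it in GENCODE v44, nor the shorter 6mer, GGTGCT, in its longest 3′ UTR. Over 19248 genes with a 3′ UTR, 15.04% had a seed match and 31.46% had at least the 6mer in the longest one. The longest 3′ UTRs of the set ran from 527 nt in KEAP1 to 7859 nt in SLC7A11, against a median of 1228 nt over all genes. In coding sequence, searched after the values below had been seen, 2 of the 9 genes had a seed match, against 22.01% of 18780 transcripts. They are shown with 10 bases on either side and the match in capitals, from GRCh38. That of KEAP1 began at nucleotide 293 of the coding sequence (chr19:10499735-10499741, minus strand) and that of TXNRD1 at nucleotide 1590 (chr12:104331581-104331587, plus strand).
KEAP1 coding match: gcccacaaggTGGTGCTggcctcatcc
TXNRD1 coding match: ctttggaataTGGTGCTtgtggccttt

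Libraries held between 39919554 and 70027392 counted reads, and all 3 ACHN inhibitor libraries were deeper than all 3 ACHN controls. Of the markers listed for renal carcinoma, PAX8, KRT8, KRT18, VIM and NNMT were expressed in every library. PAX2 was at most 1.28 CPM in A-498 and 6.96 CPM in ACHN. CA9, a marker of clear cell carcinoma, was at most 0.331 CPM in 786-O and 0.166 CPM in ACHN, and CDH6 was at most 0.328 CPM in ACHN. Of 12 markers of immune, endothelial, fibroblast and blood cells, 11 stayed under 1 CPM in every library, and LUM reached 18.2 CPM in the 786-O control. The summed level of these markers was 18.6 CPM in the 786-O control and 7.45 CPM with the mimic, from 0.870 to 1.06 CPM and from 1.12 to 1.35 CPM in A-498, and from 0.686 to 0.850 CPM and from 1.10 to 1.26 CPM in ACHN. Their part in the results was not tested, and HBA1 was at 0 throughout. The mimic and inhibitor themselves were not measured by these libraries.

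The control levels of the genes differed widely between the lines, and A-498 had the highest mean for 7 of the 8 genes that could be measured. The share of all genes highest in A-498 was not computed. Since control levels were also used to choose the genes, nothing is read from this count. Levels are given first as CPM, read counts scaled to a common depth, here over all 12 libraries. TXNRD1, the reductase that keeps thioredoxin active, was at 3129 and 3157 CPM in the 2 A-498 controls, from 854 to 961 CPM in the 3 ACHN controls and at 318.9 CPM in the 786-O control, so that the mean of A-498 was 9.86 times that of 786-O. SLC7A11, the cystine-carrying chain of the antiporter that feeds glutathione synthesis, was at 552 and 623 CPM in A-498, from 66.0 to 87.5 CPM in ACHN and at 63.8 CPM in 786-O. A-498 was thus 9.21 times the 786-O level, whereas ACHN was only 1.23 times that level and the lowest ACHN control lay close to the 786-O control.

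NQO1, which reduces quinones by 2 electrons at a time, followed the same order of lines as TXNRD1. It was at 1158 and 1168 CPM in A-498, from 468 to 501 CPM in ACHN and at 189 CPM in 786-O, and none of these ranges overlapped. HMOX1, the heme oxygenase that breaks heme into biliverdin, iron and carbon monoxide, was lowest in 786-O at 41.0 CPM, but its A-498 controls (147 and 159 CPM) overlapped the ACHN controls (111 to 152 CPM). The subunits of glutamate-cysteine ligase, the rate-limiting enzyme of glutathione synthesis, were also highest in A-498. The catalytic subunit GCLC had a mean of 124 ± 3.08 CPM (SD, n = 2) in A-498, 70.6 CPM in 786-O and 40.2 ± 0.776 CPM (SD, n = 3) in ACHN. The modifier subunit GCLM was 3.55 times higher in A-498 than in 786-O, and the 786-O control, at 104.2 CPM, was just above the highest ACHN control.

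The regulators varied least. KEAP1 was at 89.5 ± 5.12 CPM (SD, n = 2) in A-498, 73.0 ± 2.89 CPM (SD, n = 3) in ACHN and 62.1 CPM in 786-O. NFE2L2 was the only gene of the set with its highest level outside A-498, with 221.5 CPM in 786-O, 173 ± 6.55 CPM in A-498 and 145 ± 2.81 CPM in ACHN. No other gene of the set had this order of lines. Cell line, control oligonucleotide and preparation cannot be told apart in these values, and the order of the lines was taken as a description with no test.

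**Figure D1:**
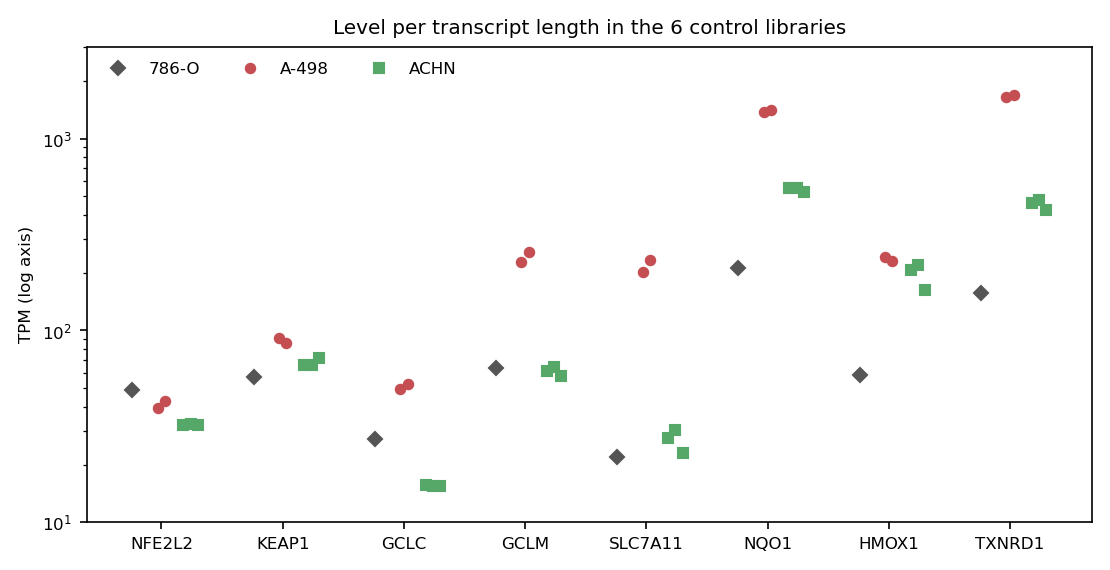
Levels of 8 genes in the 6 control libraries, in TPM (counts per length of the exon union scaled to a common total, log axis), with 1 point per library and colours for the lines. A-498 sits highest for every gene but NFE2L2, and the order between genes depends on the length used.

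Levels of different genes can be compared only per length, and the choice of length changed several orders. Divided by the union of all annotated exons (TPM), NQO1 and TXNRD1 were the 2 most abundant genes in every line, with 1391 and 1664 TPM in A-498 controls, 543 and 457 TPM in ACHN and 210.5 and 157 TPM in 786-O. The exon union of NFE2L2 is 14975 nt, however, and its reference (MANE Select) transcript 2446 nt. Per kb of that transcript, a length added after the values were seen, NQO1 and TXNRD1 were again the 2 most abundant in A-498 (461 and 814 CPM per kb) and in ACHN (193 and 239 CPM per kb), but in 786-O NFE2L2 stood first with 90.6 CPM per kb, before TXNRD1 with 82.6 and NQO1 with 75.0.

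The order of NFE2L2 and KEAP1 also turned on the length. In TPM, KEAP1 exceeded NFE2L2 in all 3 lines (57.5 against 48.9 in 786-O, 89.0 against 41.1 in A-498 and 67.9 against 32.3 in ACHN), and per kb of the reference transcript it was under NFE2L2 in all 3 (24.2 against 90.6, 34.9 against 70.8 and 28.5 against 59.4 CPM per kb), so no order is given between them. GCLM exceeded GCLC in every line with both lengths, by 242 against 51.0 TPM and 75.7 against 32.7 CPM per kb in A-498, 61.4 against 15.5 TPM and 20.5 against 10.6 CPM per kb in ACHN, and 63.6 against 27.1 TPM and 21.3 against 18.7 CPM per kb in 786-O.

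SRXN1, which encodes sulfiredoxin, the enzyme that repairs over-oxidised peroxiredoxins, could not be measured. It held only 2 to 24 counts per library. In GENCODE v44, 90.66% of its exon length lies within a readthrough gene on the same strand, and reads that fall in more than 1 gene were left out of these counts. The other 8 genes had no comparable overlap, the largest being 13.6% of exon length for NFE2L2. SRXN1 passed the filter on low counts in A-498 alone, and no level or change is read from it.

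With the miR-29 mimic, GCLC, GCLM, SLC7A11 and TXNRD1 fell in A-498 while HMOX1 and NQO1 rose. At an adjusted p under 0.05 (edgeR quasi-likelihood test, over all 19676 genes tested), 5 of the 9 genes were lower and 2 were higher. Over all tested genes 27% were lower and 25.5% were higher (52.5% in either direction), so a call by itself was common in this line, and since these contrasts were used to choose the genes, nothing is read from the share. The groups did not overlap for 74.5% of all tested genes (37.3% lower and 37.2% higher). The same p-values serve below only to set each difference against the spread between libraries.

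GCLC fell the most in A-498. The control libraries were at 125.8 and 130.4 CPM and the mimic libraries at 63.1 and 61.9 CPM. Mimic and control libraries did not overlap, the mimic mean was 48.8% of the control mean, and the log2 fold change was -1.04 ± 0.043 (SE, n = 2 per group, edgeR adjusted p = 1.19e-10). GCLM moved the same way by less, from 362.7 and 403.1 CPM to 288.7 and 274.8 CPM. Its log2 fold change was -0.44 ± 0.047 (SE, adjusted p = 2.20e-06), and the groups did not overlap. SLC7A11 was at 571.9 and 645.2 CPM in the controls and at 361.6 and 351.2 CPM with the mimic. It was left at 58.6% of the control mean (log2 fold change -0.77 ± 0.048, SE, adjusted p = 7.63e-09).

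The ratio of the modifier to the catalytic subunit, GCLM to GCLC in TPM, was examined after the values had been seen and is given without a test. It was 4.58 and 4.91 in the A-498 controls and 7.27 and 7.05 with the mimic. It was 2.35 in the 786-O control and 3.36 in the 786-O mimic library. In ACHN it was 3.97, 4.15 and 3.77 in the controls and 3.40, 3.24 and 3.20 with the inhibitor. The mimic libraries of A-498 were thus above their controls, and the inhibitor libraries of ACHN were below theirs. 786-O had no replicates, so its mimic library had to lie either above or below its control. GCLC and GCLM had been chosen on these contrasts, and the share of gene pairs whose ratio separates in this way was not computed. Nothing is therefore read from these directions.

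SLC3A2, the heavy chain that carries SLC7A11 to the membrane, fell in A-498 by more than SLC7A11 did. It was at 426 and 417 CPM in the controls and at 171 and 181 CPM with the mimic, a log2 fold change of -1.26 ± 0.039 (SE, adjusted p = 7.03e-12). In ACHN it did not pass the test (0.04 on the log2 scale, adjusted p = 0.629), and in 786-O the log2 ratio was -0.39.

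TXNRD1 was the most abundant gene of the set in A-498 and fell from 3240 and 3269 CPM to 2291 and 2242 CPM. The drop left it at 69.6% of the control mean (log2 fold change -0.52 ± 0.027, SE, adjusted p = 1.28e-09). The quinone reductase and the heme oxygenase went the other way. NQO1 rose from 1210 and 1200 CPM to 1342 and 1348 CPM, a log2 fold change of 0.16 ± 0.030 (SE, adjusted p = 4.01e-04). HMOX1 rose from 164.9 and 152.2 CPM to 268.7 and 277.8 CPM, or by 0.79 ± 0.043 on the log2 scale (SE, adjusted p = 2.20e-09). Both mimic libraries exceeded both controls for each of these genes.

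The regulators had small differences in A-498. NFE2L2 was at 174.6 and 184.3 CPM in the controls and at 179.0 and 173.7 CPM with the mimic, overlapping groups with a log2 fold change of -0.03 ± 0.040 (SE, adjusted p = 0.635). KEAP1 went from 96.5 and 89.0 CPM to 81.0 and 84.0 CPM (log2 fold change -0.17 ± 0.048, SE, adjusted p = 0.00909). The KEAP1 call was lost when the first mimic library was left out (adjusted p = 0.106) and when libraries were scaled to their totals alone (adjusted p = 0.124). The other 6 calls of A-498 held without each library in turn.

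**Figure D2:**
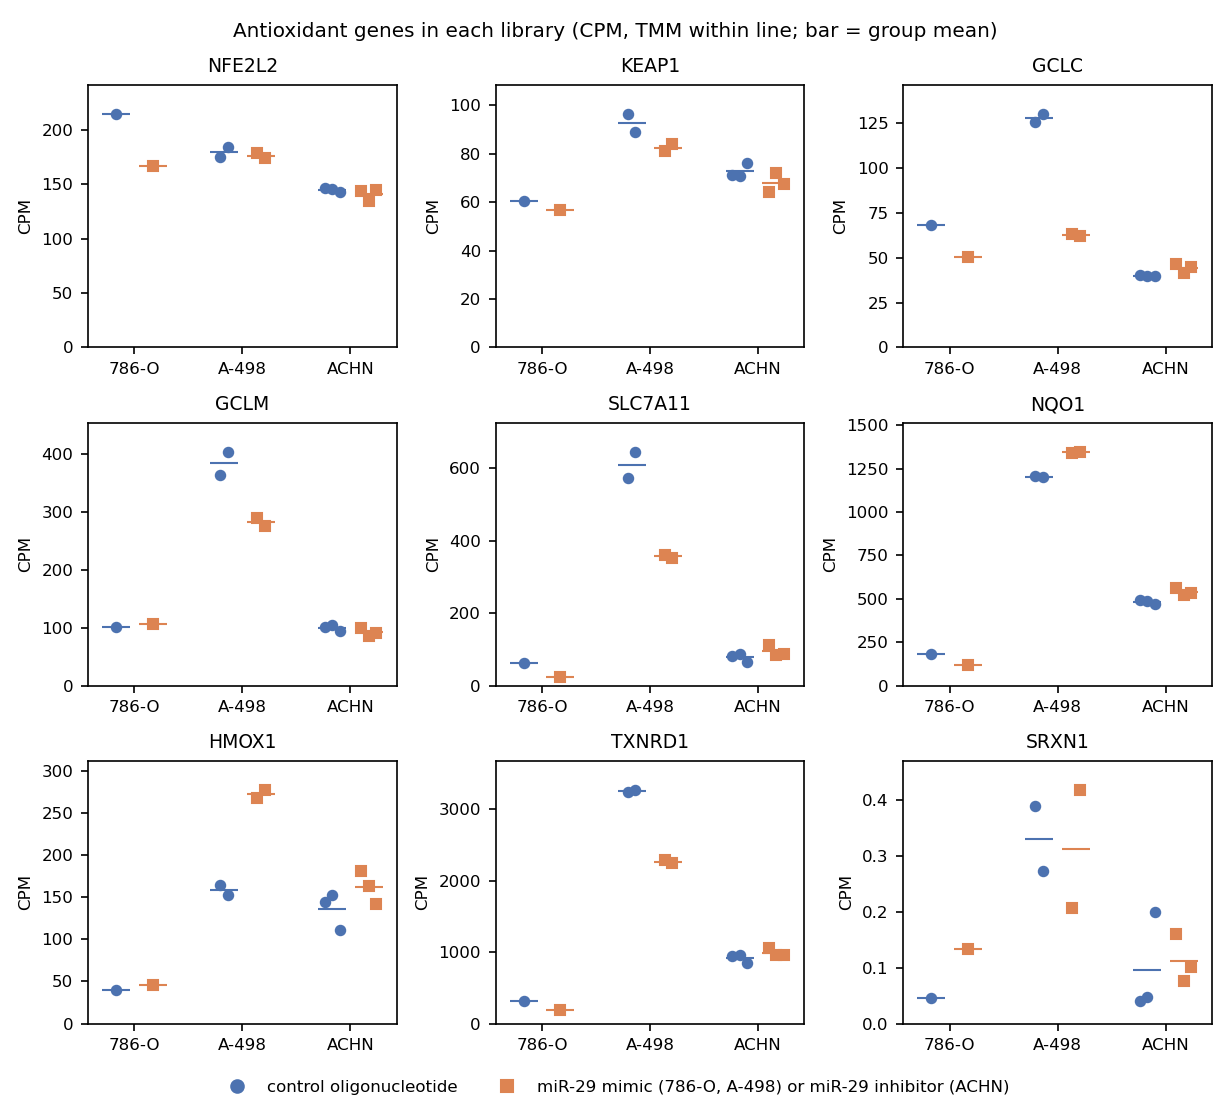
CPM of each of the 9 genes in every library, scaled within each line, with circles for control oligonucleotides, squares for the miR-29 mimic (786-O, A-498) or inhibitor (ACHN) and bars at group means. The A-498 groups are far apart for GCLC, SLC7A11, TXNRD1 and HMOX1, while the ACHN groups overlap for most genes, and SRXN1 is under 0.5 CPM throughout.

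In 786-O, with 1 library per group and no replicate check, SLC7A11 had the largest difference. It was at 61.9 CPM in the control and 23.9 CPM with the mimic, a log2 ratio of -1.37 (exact 95% binomial interval -1.48 to -1.27, covering counting error only). It was the only 1 of the 8 genes with enough counts that was at least 2-fold lower, where 8.96% of 20370 genes were, and no gene of the set was 2-fold higher (6.73% of all genes, 15.7% in either direction). The genes were chosen on this contrast too, so nothing is read from these counts. TXNRD1 was at 309.3 CPM and then 188.9 CPM with the mimic (log2 ratio -0.71, interval -0.75 to -0.67). GCLC was at 68.5 and 50.4 CPM (log2 ratio -0.44, interval -0.52 to -0.36). All 3 were also lower with the mimic in A-498, while NQO1, which lay between TXNRD1 and GCLC in the size of its 786-O difference, was not.

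NQO1, NFE2L2 and GCLM stood differently in 786-O than in A-498. NQO1 was at 183.3 CPM in the control and 118.9 CPM with the mimic (log2 ratio -0.62, interval -0.67 to -0.57), the opposite direction to A-498. NFE2L2 was at 214.8 and 166.4 CPM (log2 ratio -0.37, interval -0.41 to -0.33), whereas its A-498 groups overlapped. GCLM was nearly level at 101.1 and 106.7 CPM (log2 ratio 0.08), and so was KEAP1 at 60.2 and 56.7 CPM (log2 ratio -0.09). HMOX1 was at 39.7 and 45.7 CPM (log2 ratio 0.20, interval 0.11 to 0.30), above its control as in A-498 but by less.

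The mimic effects of both lines were set against each other as an interaction in edgeR, with the whole spread taken from A-498 because 786-O had 1 library per group. Under that assumption 7 of the 9 genes passed, as did 29.6% of 22587 genes, and KEAP1 and SRXN1 did not. Since the genes were chosen on these contrasts, the count is a description and nothing is read from it. The widest gap between measured genes was that of NQO1, whose log2 difference was 0.74 ± 0.057 lower in 786-O (SE from the A-498 libraries). When the biological coefficient of variation was instead fixed at 0.2, none of the 9 passed by edgeR's likelihood ratio test, and none had an unadjusted p under 0.05. The spread between 786-O cultures was not measured.

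**Figure D3:**
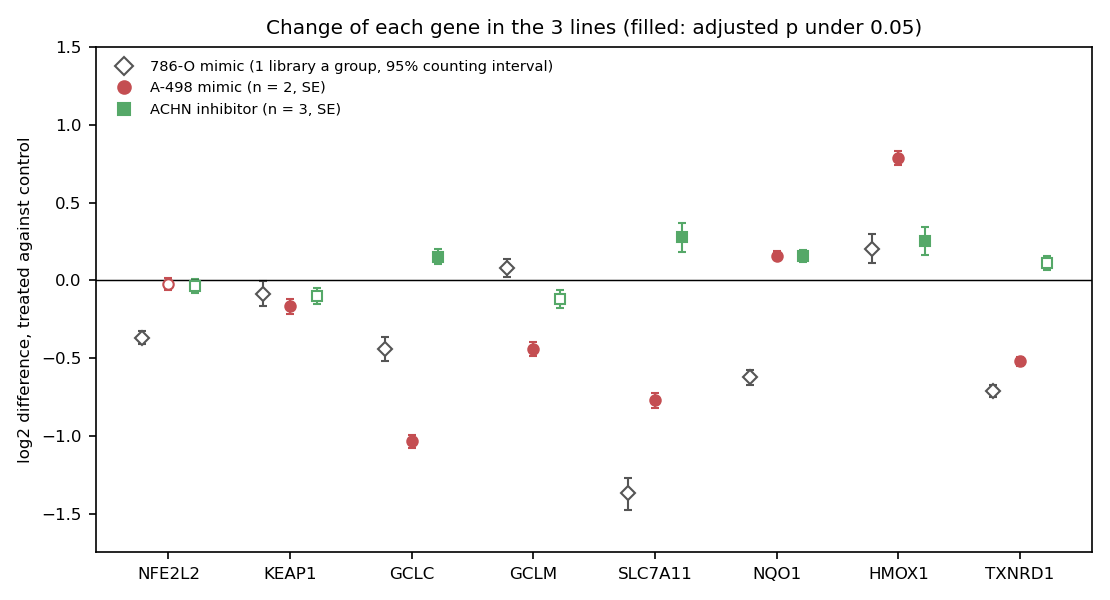
Log2 difference of treated against control libraries for 8 genes in 786-O (diamonds, bars are 95% counting intervals), A-498 (circles, bars are SE, n = 2 per group) and ACHN (squares, bars are SE, n = 3 per group). Filled symbols passed an adjusted p under 0.05, and 786-O has no test. GCLC, SLC7A11 and TXNRD1 are below 0 with the mimic in both lines and above 0 with the inhibitor.

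With the miR-29 inhibitor in ACHN the changes were small. At an adjusted p under 0.05, 4 of the 8 genes tested were higher and 0 were lower (edgeR, 17904 genes), where 17.3% of all tested genes were higher and 14.4% were lower (31.7% in either direction). Since this contrast too was used to choose the genes, nothing is read from the share. At an unadjusted p under 0.05 there were 5 higher and 1 lower, the latter being GCLM. The share of all genes at that threshold was not computed, so nothing is read from these counts. DESeq2 called 2 of the set higher and 0 lower, and over all genes it called 2666 higher and 2460 lower. These DESeq2 counts were not set against the number of genes it tested, and nothing is read from them either. No gene of the set changed by more than 0.28 on the log2 scale.

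NQO1 was the firmest of these. Its controls were at 495.0, 489.6 and 467.8 CPM and the inhibitor libraries at 560.7, 521.9 and 534.8 CPM. Every inhibitor library exceeded every control, as was so for 22.8% of all tested genes (43.5% did not overlap in either direction), with a log2 fold change of 0.16 ± 0.039 (SE, n = 3 per group, adjusted p = 0.00461), although without the third control the adjusted p was 0.0509. GCLC was at 40.6, 40.0 and 39.6 CPM in the controls and at 46.7, 41.8 and 45.1 CPM with the inhibitor. The groups did not overlap (log2 fold change 0.15 ± 0.049, SE, adjusted p = 0.0228), but the call was lost without any 1 of 5 of the 6 libraries. Its adjusted p was then 0.052 without the first control, 0.0879 without the second and 0.0827 without the third, and it was 0.156 without the first inhibitor library and 0.0801 without the third.

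SLC7A11 and HMOX1 passed the threshold with overlapping groups. SLC7A11 was at 80.3, 87.8 and 65.9 CPM in the controls and at 112.5, 84.7 and 86.3 CPM with the inhibitor (log2 fold change 0.28 ± 0.095, SE, adjusted p = 0.0333). Only the first inhibitor library stood above all controls, and without it the log2 fold change was 0.12 (adjusted p = 0.26), while without the third control it was 0.17 (adjusted p = 0.173). HMOX1 was at 144.1, 152.4 and 111.3 CPM against 181.6, 162.9 and 142.0 CPM (log2 fold change 0.25 ± 0.090, SE, adjusted p = 0.039). Its call was lost without the third control (adjusted p = 0.233), the first inhibitor library (0.198) or the second (0.0623). For both genes DESeq2 gave an adjusted p of 0.281, and scaling to library totals gave 0.0526 for SLC7A11 and 0.0622 for HMOX1.

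The rest of the set did not pass in ACHN. TXNRD1 was at 941.5, 963.1 and 853.2 CPM in the controls and 1063, 955.0 and 960.1 CPM with the inhibitor (log2 fold change 0.11 ± 0.046, SE, adjusted p = 0.0777). It passed without the second inhibitor library (0.0339). GCLM was at 101.5, 104.5 and 94.0 CPM against 99.8, 85.2 and 90.7 CPM (log2 fold change -0.12, adjusted p = 0.119), and was called lower without the third control (0.0467) or the first inhibitor library (0.0181). KEAP1 was at 71.3, 70.9 and 76.2 CPM against 64.0, 71.98 and 67.5 CPM (log2 fold change -0.10, adjusted p = 0.138), and was called lower without the second inhibitor library (0.0166). NFE2L2 was at 146.6, 145.5 and 142.7 CPM against 143.8, 134.2 and 145.1 CPM, a log2 fold change of -0.04 ± 0.045 (SE, adjusted p = 0.56). The NRF2 transcript thus passed in neither of the replicated lines.

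The third control and the first inhibitor library decided most of the ACHN calls. The third control had the lowest SLC7A11, NQO1, HMOX1 and TXNRD1 of the 6 libraries, and the first inhibitor library had the highest. The count of genes called higher was 0 without that control and 1 without that inhibitor library, with a range from 0 to 4 over the 6 fits that left out a library. The third control was also the shallowest library of all, with 39919554 reads in genes, and the part of depth in these calls was not tested.

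**Figure D4:**
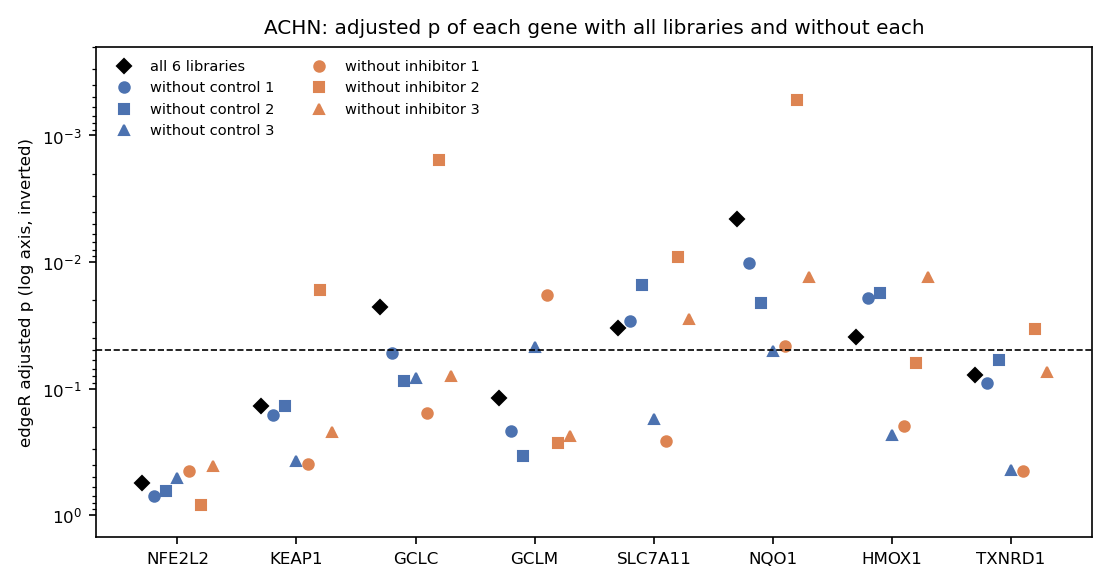
Adjusted p of 8 genes in ACHN (edgeR, log axis, inverted so that smaller values are higher) with all 6 libraries (diamonds) and without each control (blue) or inhibitor library (orange), where the dashed line is 0.05. NFE2L2 stays under the line in every fit, and GCLC, SLC7A11, NQO1 and HMOX1 each cross it when certain libraries are left out.

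NRF2 acts through antioxidant response elements, so the core of that element, TGACNNNGC, was searched on both strands of promoter windows that run from 250 bases before to 50 after each start (RefSeq, GRCh38.p14). Windows were at hand for 7 of the 9 genes, and 3 of them (KEAP1, GCLM and TXNRD1) held the core, whereas 16.06% of 27305 genes and 13.35% of 35116 windows did. NFE2L2, GCLC, NQO1 and SRXN1 had no match in these letters and this window. A second form with more fixed letters, TGANTCAGC, was searched separately and was in none of the 7 (1.66% of all genes). It leaves the fourth base open, so it is not a subset of the core. The matches are shown 5′ to 3′ on the strand that reads TGAC, with 10 bases on either side and the core in capitals. The GCLM match is at chr1:93909456-93909464, 34 to 26 bases before the start. Those of TXNRD1 are at chr12:104215680-104215688 and chr12:104215771-104215779 in one window and at chr12:104286930-104286938 in the other, and those of KEAP1 are at chr19:10502817-10502825 and chr19:10502794-10502802.
GCLM: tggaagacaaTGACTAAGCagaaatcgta
TXNRD1 first: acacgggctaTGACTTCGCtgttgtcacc
TXNRD1 second: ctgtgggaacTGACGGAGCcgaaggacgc
TXNRD1 other window: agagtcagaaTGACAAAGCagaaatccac
KEAP1 first: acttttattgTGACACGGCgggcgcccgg
KEAP1 second: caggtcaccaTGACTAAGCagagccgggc

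The 3 genes with the core were all lower in A-498 with the mimic, but so were GCLC, which had none, and SLC7A11, which was not searched. The match is a description of letters and not of NRF2 binding. Among 87 wider pathway genes with a window, 24 (27.59%) held the core and 6 (6.9%) the second form.

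The wider antioxidant system was followed in 8 lists of genes that work beside the set. They covered partners and regulators of NRF2, glutathione use, thioredoxins, NADPH supply, detoxification, heme and iron handling, superoxide and peroxide removal, and cystine import. Together they held 107 genes. In A-498, 45 of 101 tested genes were lower and 30 were higher (44.6% and 29.7%, against 27% and 25.5% of all genes), with a median log2 fold change of -0.08 where the median of all genes was 0.00. In ACHN, 12 of 99 were lower and 31 were higher (12.1% and 31.3%, against 14.4% and 17.3%), with a median of 0.02. In 786-O, 10 of 98 were at least 2-fold lower and 0 were 2-fold higher (against 8.96% and 6.73% of all genes, so that the lower share was near the background), with a median log2 ratio of -0.22 where the median of all genes was -0.01. Without the second control of ACHN the higher count was 20.

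Among 14 regulators of NRF2, 4 were lower and 5 higher in A-498 (28.6% and 35.7%, against 27% and 25.5% of all genes), and 2 were lower and 4 higher in ACHN (14.3% and 28.6%, against 14.4% and 17.3%), so that the lower shares were near the background. MAFF, a small MAF protein that pairs with NRF2, rose in A-498 from 8.24 ± 0.393 to 21.2 ± 0.907 CPM (SD, n = 2), a log2 fold change of 1.36 ± 0.074 (SE, adjusted p = 1.93e-09). MAFG, another small MAF and chosen here after its values were seen, fell in A-498 from 133 ± 4.97 to 89.1 ± 1.27 CPM (log2 fold change -0.58, adjusted p = 4.97e-08) and rose in ACHN from 66.4 ± 4.62 to 76.0 ± 4.77 CPM (SD, n = 3, log2 fold change 0.20, adjusted p = 0.0117). The ACHN call was lost without the first control (0.103) or the first inhibitor library (0.0536). In 786-O it was at 54.6 CPM in the control and 30.2 CPM with the mimic. MAFG has 4 seed matches in its 3′ UTR, of which the first and the last are shown (chr17:81922314-81922320 and chr17:81920893-81920899, minus strand).
MAFG first: agtccagagtTGGTGCTgtgggaacgg
MAFG last: atgctgcgggTGGTGCTtccaggcaga

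Other regulators act on the NRF2 protein or its partners. CUL3, the scaffold of the ligase that KEAP1 serves, had adjusted p values of 0.0923 in A-498 and 0.209 in ACHN, and BACH1, a repressor that competes for the same elements, had 0.415 and 0.488. CUL3 was called lower in A-498 without the control labelled 3 (0.0186) and in ACHN without the third inhibitor library (0.0393), and BACH1 was called higher in A-498 with scaling to library totals (0.0227). SQSTM1, the autophagy receptor that can sequester KEAP1, rose in both replicated lines, from 1223 ± 43.8 to 1514 ± 33.0 CPM in A-498 (SD, n = 2, adjusted p = 2.59e-06) and from 1030 ± 51.5 to 1215 ± 67.0 CPM in ACHN (SD, n = 3, adjusted p = 2.51e-04). These 3 were chosen after their values were seen. DPP3 and PGAM5, both binders of KEAP1, were lower in ACHN (log2 fold changes -0.30 and -0.28, adjusted p = 1.25e-04 and 2.44e-04) and higher in A-498 (0.32 and 0.24, adjusted p = 2.78e-04 and 5.23e-04).

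Of 30 tested genes that make, use or recycle glutathione, 13 were lower and 9 higher in A-498 (43.3% and 30%, against 27% and 25.5% of all genes), and of 29 in ACHN, 3 were lower and 11 higher (10.3% and 37.9%, against 14.4% and 17.3%). GGCT, which breaks down gamma-glutamyl peptides, fell in A-498 from 35.5 ± 2.14 to 10.6 ± 0.101 CPM (SD, n = 2, adjusted p = 5.49e-11) and rose in ACHN from 36.5 ± 0.559 to 49.8 ± 0.484 CPM (SD, n = 3, adjusted p = 3.06e-07). In 786-O it was at 7.43 CPM in the control and 2.70 CPM with the mimic. GLRX, a glutaredoxin, was likewise lower in A-498 (log2 fold change -0.73, adjusted p = 8.86e-08) and higher in ACHN (0.56, adjusted p = 2.51e-07). CHAC1, which degrades glutathione itself, rose in A-498 from 6.65 ± 0.195 to 29.6 ± 0.0432 CPM (SD, n = 2, log2 fold change 2.16, adjusted p = 9.88e-12) and did not pass in ACHN (0.20, adjusted p = 0.189).

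In A-498, detoxification genes were the list with the most negative median apart from HIF targets (median log2 fold change -0.25). There 12 of 21 were lower and 6 higher (57.1% and 28.6%, against 27% and 25.5% of all genes). In 786-O, 5 of 19 were at least 2-fold lower and 0 were 2-fold higher (26.3% and 0%, against 8.96% and 6.73% of all genes). The 786-O median log2 ratio was -0.63. In ACHN 6 of 19 were higher and 2 were lower (31.6% and 10.5%, against 17.3% and 14.4% of all genes). AKR1C3, an aldo-keto reductase, fell in A-498 from 1833 ± 17.9 to 1321 ± 7.47 CPM (SD, n = 2, adjusted p = 6.68e-09) and rose in ACHN from 11.8 ± 1.37 to 18.0 ± 0.148 CPM (SD, n = 3, adjusted p = 6.53e-06). AKR1C genes are near copies of each other, so their reads may be split or lost between them.

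Of 12 thioredoxin and peroxiredoxin genes, 6 were lower and 3 higher in A-498 (50% and 25%, against 27% and 25.5% of all genes), and 2 were lower and 3 higher in ACHN (16.7% and 25%, against 14.4% and 17.3%). TXNIP, the protein that binds and inhibits thioredoxin, rose with both the mimic and the inhibitor, by 1.08 ± 0.055 on the log2 scale in A-498 (SE, adjusted p = 1.01e-09) and by 0.54 ± 0.047 in ACHN (SE, adjusted p = 8.37e-08). SESN2, a stress-induced sestrin, rose in A-498 from 34.5 ± 0.776 to 123 ± 0.388 CPM (SD, n = 2, adjusted p = 6.76e-13) and did not pass in ACHN (adjusted p = 0.23). Of the enzymes that supply NADPH, 3 of 9 were lower and 2 higher in A-498 (33.3% and 22.2%, against 27% and 25.5% of all genes), and 2 of 9 were lower and 1 higher in ACHN (22.2% and 11.1%, against 14.4% and 17.3%).

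Of 7 heme and iron genes tested, 3 were lower and 3 higher in A-498 (42.9% each, against 27% and 25.5% of all genes), and 4 were higher in ACHN (57.1%, against 17.3%). FECH, which inserts iron to complete heme, fell in A-498 from 84.5 ± 0.384 to 20.3 ± 0.575 CPM (SD, n = 2, log2 fold change -2.06, adjusted p = 6.39e-13) and was at 58.3 CPM in the 786-O control and 11.6 CPM with the mimic. In ACHN it rose from 57.4 ± 2.53 to 78.0 ± 2.69 CPM (SD, n = 3, adjusted p = 9.21e-07). SLC48A1, a heme transporter, rose in A-498 by 1.08 ± 0.052 on the log2 scale (SE, adjusted p = 5.67e-10) and in ACHN by 0.20 ± 0.050 (SE, adjusted p = 0.00439). The remaining lists were short. Of superoxide and peroxide genes, 1 of 2 was lower in A-498 and 1 of 3 higher in ACHN (50% and 33.3%). Of 6 cystine import genes, 3 were lower and 2 higher in A-498 (50% and 33.3%). In ACHN 1 of these 6 was lower and 1 higher (16.7% each). Over all genes 27% were lower and 25.5% higher in A-498, and 14.4% and 17.3% in ACHN. With so few genes, nothing is read from these counts.

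SLC7A11 is also a target of ATF4, the factor of the amino acid response, so the ATF4 targets were followed beside it. The list held 17 genes, ATF4 itself among them, and SESN2, CHAC1, MTHFD2 and SLC3A2 were also in the antioxidant lists above. In A-498, 10 of the 17 were higher and 4 lower (58.8% and 23.5%, against 25.5% and 27% of all genes, median log2 fold change 0.29). SLC7A11 fell there, and the part of ATF4 in its change was not tested. PSAT1 and PHGDH, which make serine, were among the higher ones (0.89 and 0.69 on the log2 scale, adjusted p = 2.28e-10 and 4.78e-09), with DDIT3 at 1.10 (adjusted p = 2.59e-09). The 4 that fell included SLC7A5, the large neutral amino acid transporter, from 524 ± 37.5 to 123 ± 2.95 CPM (SD, n = 2, adjusted p = 3.29e-13), TRIB3, from 100.3 ± 5.05 to 34.6 ± 2.14 CPM (SD, n = 2, adjusted p = 2.75e-11), and SLC3A2. In ACHN SLC7A5 was lower too (log2 fold change -0.18, adjusted p = 0.0386), a call lost without the second control (0.138), the third control (0.14), the first inhibitor library (0.0551) or the third (0.225), while TRIB3 was higher (0.43, adjusted p = 2.55e-06). In all, 5 of the 17 genes on the ATF4 list were higher and 3 lower in ACHN (29.4% and 17.6%, against 17.3% and 14.4% of all genes). STC2 was up by 0.88 (adjusted p = 3.63e-10), and PHGDH and PSAT1 were down by 0.21 and 0.20 on the log2 scale (adjusted p = 0.00133 and 0.00208).

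HIF targets, which renal carcinoma lines often express, were lower in 6 and higher in 3 of 9 in A-498 (66.7% and 33.3%, against 27% and 25.5% of all genes, median log2 fold change -0.77) and higher in 3 and lower in 1 of 8 in ACHN (37.5% and 12.5%, against 17.3% and 14.4%). ANGPTL4 went from 17.5 ± 3.22 to 8.23 ± 0.748 CPM in A-498 (SD, n = 2, adjusted p = 1.37e-06) and from 48.5 ± 0.304 to 116 ± 8.99 CPM in ACHN (SD, n = 3, adjusted p = 5.68e-12). The genes of these wider lists, unlike the 9 above, did include some with seed matches. Of the 45 genes lower in A-498, 10 (22.22%) had one in the longest 3′ UTR. So did 1 of the 30 higher (3.33%) and 3 of the 26 not called (11.54%). In ACHN, 7 of the 31 higher genes had one (22.58%), 3 of the 12 lower (25.0%) and 5 of the 56 not called (8.93%). Over all genes with a 3′ UTR the share was 15.04%, and it was not computed for all genes called in either line. No test was made on these counts.

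Among the genes named above, SLC7A5, FECH, GGCT, TRIB3 and STC2 had 1 seed match each and ANGPTL4 had 2. Among the 5 with the largest falls in A-498, SLC7A5, FECH, GGCT and TRIB3 had a match and SLC3A2 had none. These 5 were picked by the size of their fall, and the share with a match was not computed for all genes that fell as far. GSTO2, a weakly expressed glutathione gene with 5 matches, was higher in A-498 (log2 fold change 0.705, edgeR adjusted p = 0.00299). Whether the matches had a part in these changes was not tested. STC2 did not pass in A-498 (log2 fold change -0.01, edgeR adjusted p = 0.944). The matches of GGCT (chr7:30496758-30496764, minus strand), TRIB3 (chr20:397057-397063, plus strand) and SLC7A5 (chr16:87830621-87830627, minus strand) are shown as examples.
GGCT: cacttgatgaTGGTGCTggtgaattgc
TRIB3: ccactgatgcTGGTGCTcaggcacctc
SLC7A5: ctgtgatcctTGGTGCTgtgtgcccca

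**Figure D5:**
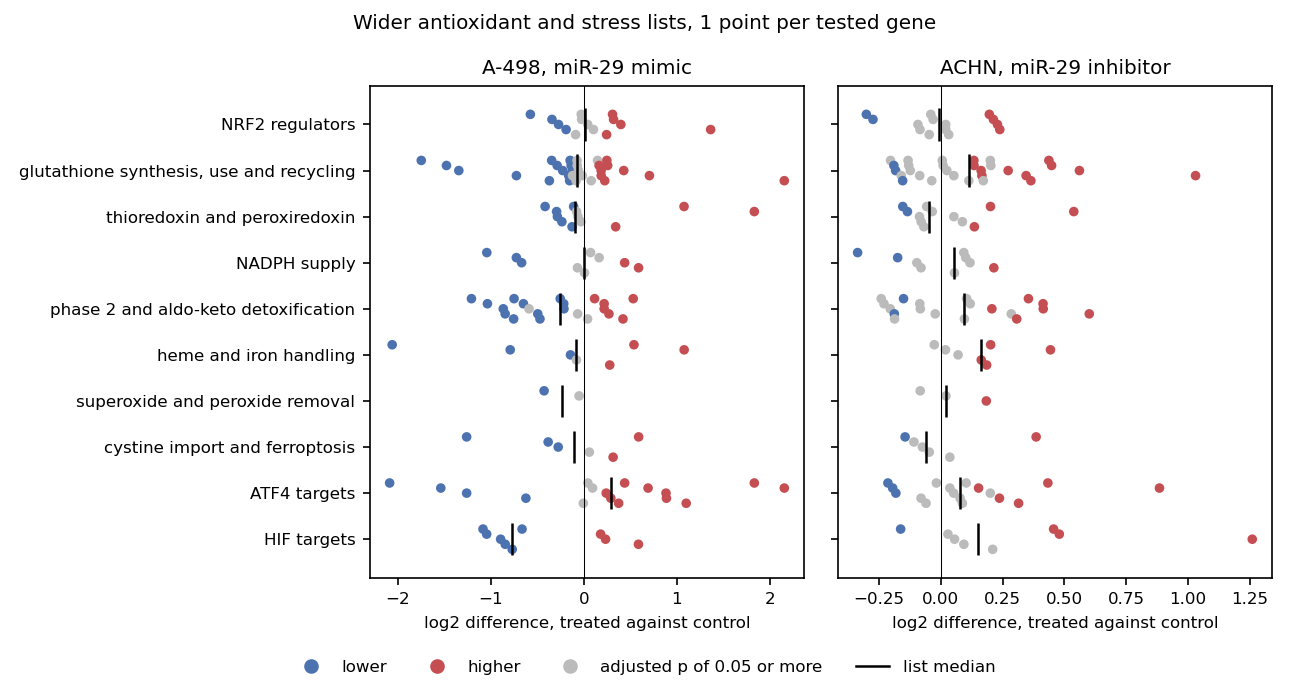
Log2 differences of treated against control libraries for every tested gene of 10 lists in A-498 with the mimic and in ACHN with the inhibitor (x axes differ in scale), coloured by call, with a bar at each list's median. Detoxification and HIF targets have medians of -0.25 and -0.77 in A-498, where ATF4 targets are at 0.29, and the ACHN medians lie between -0.06 and 0.16.

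Genes whose pattern was nearest to each of the set were found over the 12 libraries, after each line was centred on its mean, among 8267 genes of at least 10 CPM in every line. The points share libraries, and most of the variation is that of A-498 and 786-O between control and mimic. The nearest to GCLC was CEP152 (Pearson r = 0.998), to TXNRD1 NAV3 (r = 0.991), to GCLM ZNF326 (r = 0.987) and to NQO1 TNFRSF10B (r = 0.985). For NFE2L2 it was MRPL32 (r = 0.977), for SLC7A11 PFKFB2 (r = 0.975), for KEAP1 PFKP (r = 0.971) and for HMOX1 SARS1 (r = 0.963). Within the set the closest pair was SLC7A11 and TXNRD1 (r = 0.981), and HMOX1 and KEAP1 ran most against each other (r = -0.828). These are descriptions over 12 libraries, with no test.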

How the data were processed

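The 12 RNA-seq libraries were grouped by their labels. The authors prepared stranded libraries after ribosomal RNA depletion, and, per the labels, aligned reads to GRCh38 with HISAT2 and counted them with HTSeq; raw counts per Ensembl gene were deposited without normalisation. GENCODE v44 gave a symbol to 56948 of the 58051 genes (98.1%). HTSeq's summary lines, which held 37.2% to 48.0% of each library's reads, were left out. The authors' DESeq2 tables of fold changes and p-values were not used. The study excluded other A-498 libraries, which were not analysed here.

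Counts were tested within A-498 and within ACHN by edgeR 4.0.16 (R 4.3.3, quasi-likelihood, TMM, filterByExpr, Benjamini-Hochberg over all genes). A gene was called lower or higher at an adjusted p under 0.05. For 786-O, log2 ratios of CPM (prior count 2, at least 10 counts) were given with exact 95% binomial intervals. CPM of tests are TMM-scaled within a line. TPM used the union of each gene's exons in GENCODE v44. edgeR's common biological variation (BCV) was 3.83% for A-498 and 5.25% for ACHN, and every replicate pair differed beyond counting error. The labels do not say whether replicates were separate cultures, although the study's methods call them biological. Intervals cover counting error only, as no molecular identifiers were described.

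All 9 genes are named. From the wider lists, the 5 lower and 5 higher genes with the largest change in A-498 and in ACHN (average log2 CPM of at least 3) are named, and for each of the 9 the gene with the most similar pattern. The result for 1 gene that this rule names is not reported here. Members and lists were chosen with earlier results of these data known. SOD2 was not matched by symbol. Alternatives were library size, RLE, DESeq2, no filter, leaving out each library, the replicate number as a block, 1 fit of 12 libraries and a threshold of 0.01. The tests were run on simulated counts with 200 changed genes. At 1.2-fold, 75% were recovered in the A-498 design with 16 false calls, and 68.5% in the ACHN design with 17. At 1.5-fold and 2-fold, 100% were recovered, with 11 to 25 false calls. Changes under 1.2-fold were not simulated. The changed genes all had an average log2 CPM of at least 3. In the data far more genes were called, 10328 of 19676 in A-498 and 5680 of 17904 in ACHN. The simulated rates therefore cannot be carried over to a setting with that many changes.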

Additional observations from a re-analysis of the deposited data

Results flagged for a closer look

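For 7 of the genes the mimic effect in 786-O passed an edgeR interaction test against that in A-498 (adjusted p under 0.05), but with 1 library per group in 786-O the whole spread came from A-498, and the genes had been chosen on these contrasts, so the values describe these libraries and are not independent evidence that the lines differ. The differences, given as the effect in 786-O minus that in A-498 on the log2 scale, were negative for 5 genes and positive for 2. NQO1 differed by -0.74 (adjusted p = 5.93e-09, log2 differences of -0.62 in 786-O and 0.16 in A-498), with every library of A-498 moving one way and the 786-O pair the other. HMOX1 differed by -0.54 (adjusted p = 5.98e-05) and SLC7A11 by -0.55 (adjusted p = 9.14e-05). NFE2L2 differed by -0.30 (adjusted p = 0.00315). GCLC differed by 0.64 (adjusted p = 4.00e-06) and GCLM by 0.57 (adjusted p = 2.28e-05) (log2 differences of 0.08 in 786-O and -0.44 in A-498 for GCLM). TXNRD1 differed by -0.14 (adjusted p = 0.04). With edgeR's variation between cultures (BCV) set to 0.2, the lowest adjusted p among these genes was 0.719.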

How the results depend on the processing

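In A-498 the count of the 9 genes called higher was 2 under every alternative, and the count called lower was 4 with library totals and ranged from 4 to 5 when each library was left out, the change being KEAP1. In ACHN the count called higher was 4, and became 2 with library totals, 2 with DESeq2, 1 at an adjusted p under 0.01 and from 0 to 4 without each library. It was 5 with no filter on low counts and 5 with all 12 libraries in 1 fit. TXNRD1 passed in both of these (edgeR adjusted p = 0.00949 and 0.025). The count called lower ranged from 0 to 1 without each library. The ACHN count of wider antioxidant genes called higher ranged from 20 to 31 without each library, and the ACHN genes called lower numbered 1640 at an adjusted p under 0.01 against 2578. With library totals, the A-498 split over all genes was 4352 lower and 6191 higher against 5313 and 5015. The interaction count of 7 became 0 with the coefficient of variation fixed at 0.2. The promoter count of 3 was 0 with the second motif, TGANTCAGC, which is not a subset of the core. With the reference transcript's length, an alternative added after seeing the data, the log2 ratio of control levels of KEAP1 to NFE2L2 reversed in each line (786-O 0.23 and then -1.90, A-498 1.11 and then -1.02, ACHN 1.07 and then -1.06), as did in 786-O that of NQO1 to NFE2L2 from 2.10 to -0.27 and that of TXNRD1 to NFE2L2 from 1.68 to -0.13. No log2 fold change of a named gene that passed its test reversed. The replicate number of ACHN did not pair libraries (correlations of deviations 0.32, -0.29 and -0.08), and the replicate block gave 5 genes called higher, adding TXNRD1 (adjusted p = 0.0269). No paired analysis was possible because A-498 groups share 1 number and 786-O has 1 library per group. SRXN1 cannot be assessed, since most of its exon length is shared with a gene on the same strand. Where leaving out a library left a group with 1 sample in A-498, that sample was assumed to vary like the other group.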
